A study of Mus musculus with 16 samples.

Results

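The chemokines and their receptors were examined in whole lung RNA. Members were taken by gene symbol, as every listed gene named Ccl, Cxcl, Ccr, Cxcr or Ackr with a number, together with Cx3cl1, Cx3cr1, Xcl1, Xcr1, Pf4 and Ppbp. The members described are 54 of the 16380 listed genes, of which 33 encode ligands, 17 signalling receptors and 4 atypical receptors. RNA sequencing covered 4 groups with 4 libraries each. KO-Bleo and KO-Sal were lungs of IL-31RA knockout mice, which lack exons 4 to 6 of Il31ra, given bleomycin or saline. WT-Bleo and WT-Sal were lungs of wildtype C57BL/6 mice given bleomycin or saline. By the methods, the knockout mice and their wildtype littermates were of C57BL/6 background. Bleomycin, a DNA-damaging drug, was given intradermally over 4 weeks, with 6 U per kg on each of 5 days a week, and lungs were taken on day 28. The methods give male and female mice of 10 to 18 weeks of age, and no source used here links a library to a mouse, so p-values measure the spread between these libraries.

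Chemokines are small secreted proteins that draw leukocytes along a gradient. They are named by the spacing of their first cysteines (CC, CXC, CX3C and XC), and each binds receptors of the matching class, which signal through inhibitory G proteins. In injured lung, ligands of Ccr2 bring in monocytes that become macrophages, ligands of Cxcr2 bring in neutrophils, and ligands of Cxcr3 bring in activated T cells and NK cells. Atypical receptors bind chemokines without that signal and clear, move or hold them.

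Values are RPKM, which divides the reads of a gene by its length and by the total of its library, so that levels can be set side by side between genes. Total reads lay between 7790591 and 32153864 in 14 libraries, while WT-Bleo replicate 6 had 604136 and KO-Bleo replicate 15 had 1234598. Of the 54 members, 46 had a mean of at least 1 RPKM in a group, and 13 were at 0 in at least 1 library, 11 of them in WT-Bleo replicate 6 and 4 in KO-Bleo replicate 15. Il31ra itself had 2 to 9 reads per KO-Bleo library, 0 to 13 per WT-Bleo library, 2 to 3 per KO-Sal library and 5 to 17 per WT-Sal library, too few to check the genotype of a library. Changes are log2 fold changes of RPKM + 1 with their standard error from limma, and a gene was called at a Benjamini-Hochberg adjusted p under 0.05 over all listed genes. The added 1 shrinks the changes of members with low levels.

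By whole chromosome, 13 members lie on chromosome 11, 12 on chromosome 9 and 11 on chromosome 5. Many of them lie in clusters, but others, such as Ccr7 on chromosome 11 and Cxcr5 on chromosome 9, lie far from these. The neutrophil attractants Cxcl1, Cxcl2 and Cxcl3 and the interferon-induced Cxcl10 lie on chromosome 5, and the stretches before their starts are shown because these members of one chromosome had different levels in the same lungs. Sequences are from RefSeq (GRCm38.p6), on the strand of the gene, and end at the base before the annotated start. Capitals mark matches, on either strand, to 3 motifs. The NF-kB motif was searched as GGGA, any base, then TTTCC. The interferon response element (ISRE) was searched as TTTC, any 2 bases, then TTTC, and the AP-1 motif as TGANTCA. Cxcl3 is shown from chr5:90785951-90786100, Cxcl1 from chr5:90891095-90891244 and Cxcl2 from chr5:90903749-90903898 on the plus strand, and Cxcl10 from chr5:92348890-92349139 on the minus strand.
Cxcl1: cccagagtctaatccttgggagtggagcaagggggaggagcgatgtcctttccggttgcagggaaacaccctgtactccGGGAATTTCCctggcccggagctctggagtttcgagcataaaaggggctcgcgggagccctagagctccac
Cxcl2: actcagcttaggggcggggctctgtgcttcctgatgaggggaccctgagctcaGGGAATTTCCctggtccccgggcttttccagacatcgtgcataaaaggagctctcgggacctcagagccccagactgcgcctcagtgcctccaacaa
Cxcl3: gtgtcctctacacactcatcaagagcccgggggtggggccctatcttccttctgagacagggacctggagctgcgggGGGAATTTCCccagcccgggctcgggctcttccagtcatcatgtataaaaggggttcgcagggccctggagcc
Cxcl10: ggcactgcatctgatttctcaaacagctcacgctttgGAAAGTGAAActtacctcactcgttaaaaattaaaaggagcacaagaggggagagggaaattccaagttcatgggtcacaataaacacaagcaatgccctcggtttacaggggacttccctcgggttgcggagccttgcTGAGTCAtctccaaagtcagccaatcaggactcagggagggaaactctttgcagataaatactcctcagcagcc
The first base of the NF-kB match stood 71 bases before the start in Cxcl1, 97 in Cxcl2 and 73 in Cxcl3, and the matched letters were the same in all of them. In Cxcl10 the ISRE match stood 213 bases and the AP-1 match 74 bases before the start. In the 250 bases before the start, a window held for 42 members and 12871 listed genes, the NF-kB letters were found in 4 members (9.52%) and 0.466% of genes. The ISRE letters were found in 3 members (7.14%) and 3.29% of genes, and the AP-1 letters in 6 members (14.3%) and 6.22% of genes. The NF-kB and ISRE matches depended on the letters chosen. With motifs 1 base shorter, GGANTTTCC and GAAANNGAA, tried after these matches were seen, NF-kB letters were found in 5 members (11.9%, against 1.38% of genes) and ISRE letters in 7 members (16.7%, against 7.66%). The longer NF-kB letters were in Ccr3, Cxcl1, Cxcl2 and Cxcl3, and the shorter ones were found in these and in Cxcl10. Those of Cxcl10 are not in capitals above. Cxcl1, Cxcl2 and Cxcl3 lie close together and have similar stretches, so their matches do not count as independent. A match is a run of letters and not a measured site.

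With bleomycin, more members were called higher than lower in both genotypes. In KO-Bleo against KO-Sal, 24 of 54 members were called, 20 higher and 4 lower, where 23.6% of all genes were called, 13.2% higher and 10.4% lower. In WT-Bleo against WT-Sal, 30 of 54 were called, 21 higher and 9 lower, where 30.9% of all genes were called, 18.6% higher and 12.3% lower. The higher members were 37% of the family in knockout and 38.9% in wildtype lungs, while the lower members, 7.41% and 16.7%, stood near the share of all genes. The median log2 fold change of the members was 0.19 in knockout and 0.27 in wildtype lungs, against -0.01 and 0.01 over all genes. Without WT-Bleo replicate 6 the wildtype count was 37, with 26 higher and 11 lower, where 39.3% of all genes were called, 23.8% higher and 15.5% lower. The count of lower members was 5 there without WT-Sal replicate 3 or 4, and in knockout lungs it was 0 without KO-Sal replicate 11 or KO-Bleo replicate 13 or 16 and 2 without KO-Sal replicate 9 or 12. The lower share of all genes in these refits was 9.04% to 10.3% in wildtype and 6.42% to 8.52% in knockout lungs. Of the calls, 18 were higher and 3 lower in both genotypes, where 10.3% of all genes were higher and 6.30% lower in both. Of the ligands, 15 were higher and 3 lower in knockout lungs and 17 higher and 4 lower in wildtype lungs. Of the receptors, 3 were higher and 1 lower in knockout lungs and 2 higher and 5 lower in wildtype lungs.

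**Figure D1:**
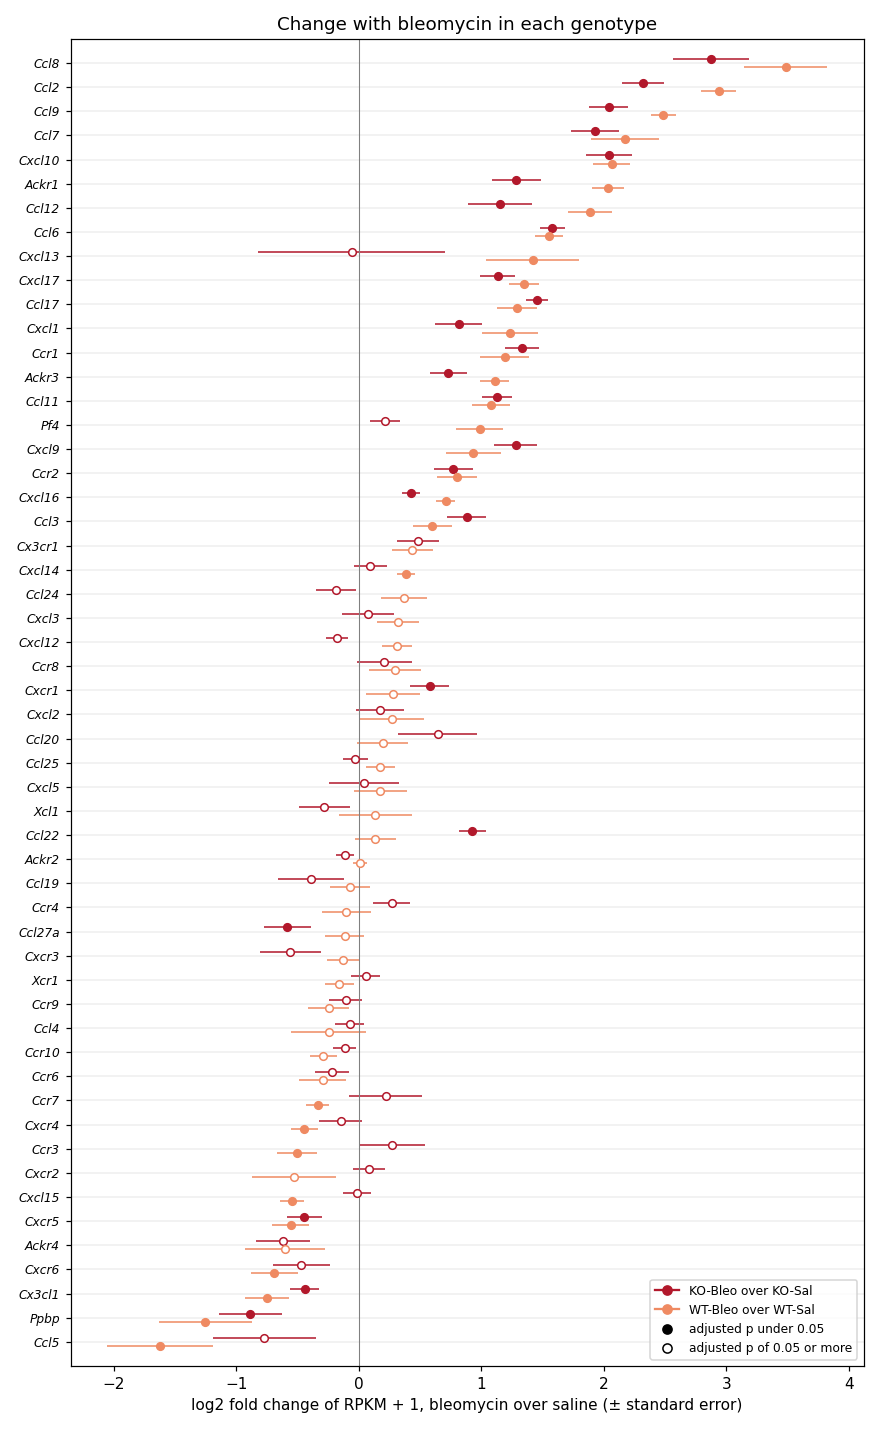
Log2 fold change of RPKM + 1 with bleomycin (x axis, ± standard error) for each of the 54 members (y axis), KO-Bleo over KO-Sal above WT-Bleo over WT-Sal, with filled points for an adjusted p under 0.05. Ccl8 and Ccl2 have the highest values in both genotypes, and Ccl5 and Ppbp the lowest.

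Ccl2, Ccl7, Ccl12 and Ccl8, the monocyte chemoattractant proteins on chromosome 11, rose in both genotypes. Ccl2, also called MCP-1 and the main monocyte attractant, stood at 10.9, 7.89, 15.1 and 10.1 RPKM in KO-Bleo lungs and 13.2, 14.4, 15.6 and 16.2 RPKM in WT-Bleo lungs, against 1.398, 1.67, 1.44 and 0.946 RPKM in KO-Sal lungs and 1.75, 0.777, 0.951 and 0.897 RPKM in WT-Sal lungs. Every bleomycin library was above every saline library, with changes of 2.32 ± 0.17 (adjusted p = 2.602e-05) in knockout and 2.94 ± 0.14 (adjusted p = 1.003e-06) in wildtype lungs. Ccl7, which binds Ccr1, Ccr2 and Ccr3, stood at 6.61, 4.88, 10.1 and 5.16 RPKM in KO-Bleo lungs and 6.603, 6.21, 9.92 and 7.96 RPKM in WT-Bleo lungs, against 1.06, 0.881, 1.29 and 0.661 RPKM in KO-Sal lungs and 0.161, 1.83, 1.599 and 0.517 RPKM in WT-Sal lungs. Its groups did not overlap either, with changes of 1.93 ± 0.19 (adjusted p = 1.35e-04) in knockout and 2.17 ± 0.28 (adjusted p = 3.36e-04) in wildtype lungs. Ccl12, a mouse ligand of Ccr2, stood at 6.61, 4.29, 4.53 and 5.64 RPKM in KO-Bleo lungs and 10.7, 9.26, 11.8 and 8.26 RPKM in WT-Bleo lungs, against 3.05, 1.86, 2.401 and 0.547 RPKM in KO-Sal lungs and 2.87, 1.17, 1.75 and 2.31 RPKM in WT-Sal lungs. It rose by 1.15 ± 0.26 (adjusted p = 0.0108) in knockout and 1.89 ± 0.18 (adjusted p = 5.4000e-05) in wildtype lungs, and the KO-Bleo libraries lay between the saline libraries and the WT-Bleo libraries. Ccl8, or MCP-2, stood at 30.3, 19.8, 34.9 and 28.1 RPKM in KO-Bleo lungs and 33.7, 38.9, 27.5 and 30.001 RPKM in WT-Bleo lungs, against 2.87, 3.904, 5.04 and 1.03 RPKM in KO-Sal lungs and 2.76, 0.272, 3.4996 and 2.63 RPKM in WT-Sal lungs. Its changes, 2.88 ± 0.31 (adjusted p = 2.55e-04) in knockout and 3.48 ± 0.34 (adjusted p = 6.66e-05) in wildtype lungs, were the largest of the family.

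**Figure D2:**
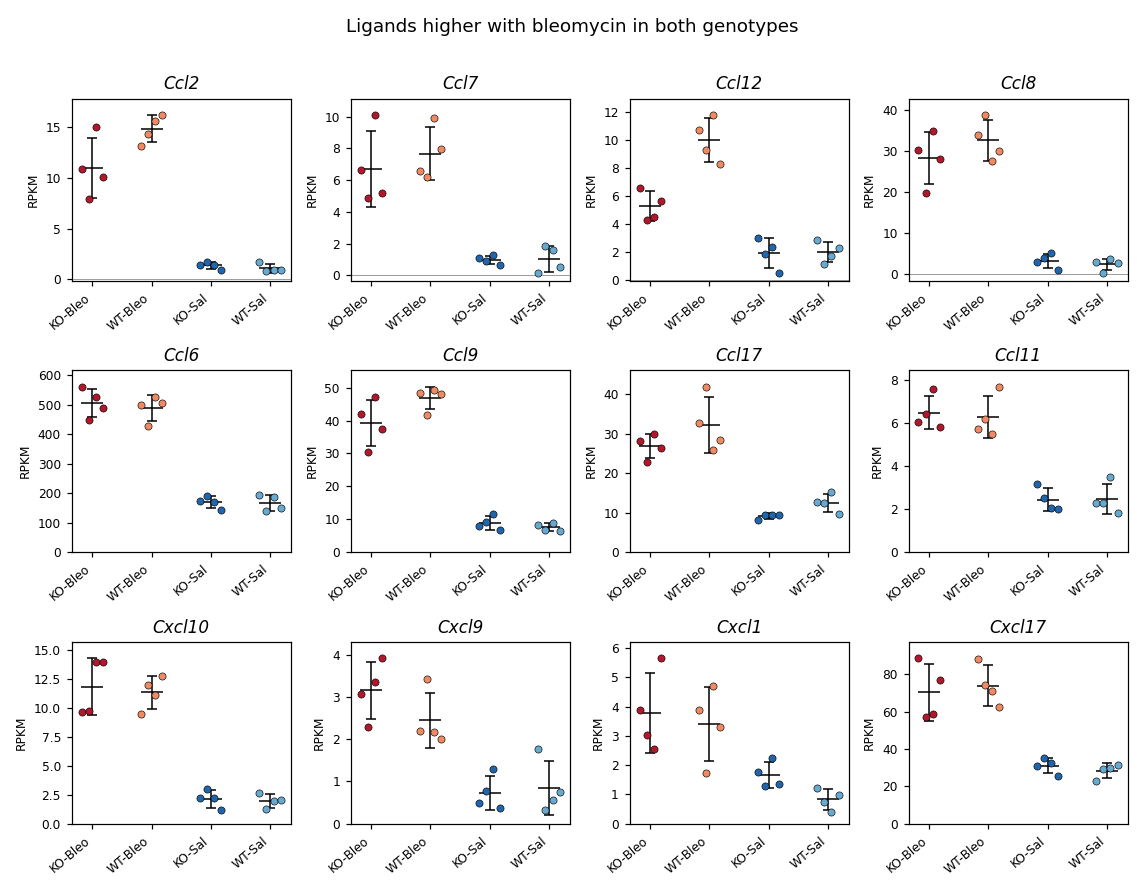
RPKM (y axis) of 12 ligands in KO-Bleo, WT-Bleo, KO-Sal and WT-Sal lungs (x axis), with a point per library and the mean ± SD (n = 4). All bleomycin libraries lie above all saline libraries of the same genotype for each of these ligands, and Ccl12 is the one of them whose KO-Bleo libraries all lie below the WT-Bleo libraries.

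Of the other CC ligands made by macrophages and lymphocytes, Ccl6, Ccl9 and Ccl3 rose in both genotypes. Ccl6, a mouse ligand of Ccr1 made by macrophages, was the second most abundant member and stood at 561, 449, 527 and 489 RPKM in KO-Bleo lungs and 498, 428, 526 and 507 RPKM in WT-Bleo lungs, against 174, 191, 170.3 and 142 RPKM in KO-Sal lungs and 193, 139.6, 187 and 149.7 RPKM in WT-Sal lungs. It rose by 1.58 ± 0.10 (adjusted p = 1.09e-05) in knockout and 1.55 ± 0.11 (adjusted p = 1.23e-05) in wildtype lungs, with no overlap. Ccl9, a neighbour of Ccl6 that also binds Ccr1, stood at 41.9, 30.4, 47.1 and 37.5 RPKM in KO-Bleo lungs and 48.3, 41.8, 49.2 and 48.2 RPKM in WT-Bleo lungs, against 7.87, 9.25, 11.5 and 6.73 RPKM in KO-Sal lungs and 8.28, 6.64, 8.96 and 6.49 RPKM in WT-Sal lungs. It rose by 2.04 ± 0.16 (adjusted p = 3.904e-05) in knockout and 2.49 ± 0.10 (adjusted p = 4.57e-07) in wildtype lungs, and its separation of bleomycin from saline libraries was complete. Ccl3, or MIP-1 alpha, overlaps Ccl4 in the annotation and stood at 3.21, 2.57, 4.0998 and 3.02 RPKM in KO-Bleo lungs and 2.29, 2.09, 3.82 and 3.31 RPKM in WT-Bleo lungs, against 0.999, 1.11, 1.06 and 2.08 RPKM in KO-Sal lungs and 1.46, 1.41, 1.94 and 1.31 RPKM in WT-Sal lungs. It rose by 0.88 ± 0.16 (adjusted p = 0.00355) in knockout and 0.60 ± 0.16 (adjusted p = 0.01796) in wildtype lungs, the wildtype call being lost without WT-Sal replicate 2 or 4 or WT-Bleo replicate 8 (adjusted p up to 0.0558). Ccl4, or MIP-1 beta, lay between 0 and 1.94 RPKM in all libraries and was not called. Ccl5, or RANTES, made by T cells and NK cells, stood at 21.7, 23.8, 22.9 and 27.8 RPKM in KO-Bleo lungs and 14.5, 3.12, 18.97 and 16.3 RPKM in WT-Bleo lungs, against 59.7, 24.5, 91.2 and 22.1 RPKM in KO-Sal lungs and 39.6, 28.6, 47.1 and 33.5 RPKM in WT-Sal lungs. It fell in wildtype lungs, at -1.62 ± 0.44 (adjusted p = 0.0189), a call lost without WT-Sal replicate 1 or 3, and had -0.77 ± 0.42 (adjusted p = 0.222) in knockout lungs, where the KO-Sal libraries differed more than 4-fold among themselves.

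Ccr3, Ccr4 and Ccr8 mark eosinophils and type 2 and regulatory T cells. Of their ligands not described above, Ccl11 and Ccl17 rose in both genotypes. Ccl11, or eotaxin, stood at 6.06, 6.42, 7.55 and 5.81 RPKM in KO-Bleo lungs and 5.72, 6.17, 5.48 and 7.67 RPKM in WT-Bleo lungs, against 3.15, 2.52, 2.04 and 2.02 RPKM in KO-Sal lungs and 2.27, 2.27, 3.49 and 1.83 RPKM in WT-Sal lungs. It changed by 1.13 ± 0.12 (adjusted p = 2.03e-04) in knockout and 1.08 ± 0.15 (adjusted p = 6.17e-04) in wildtype lungs. Ccl17, or TARC, stood at 28.1, 22.9, 29.9 and 26.4 RPKM in KO-Bleo lungs and 32.6, 41.9, 25.9 and 28.3 RPKM in WT-Bleo lungs, against 8.11, 9.36, 9.51 and 9.47 RPKM in KO-Sal lungs and 12.7, 12.3, 15.2 and 9.65 RPKM in WT-Sal lungs. It rose by 1.46 ± 0.09 (adjusted p = 6.92e-06) in knockout and 1.29 ± 0.16 (adjusted p = 2.81e-04) in wildtype lungs, all bleomycin libraries being above 22 RPKM and all saline libraries below 16 RPKM. Ccl22, the other ligand of Ccr4, stood at 8.46, 10.3, 10.3 and 7.36 RPKM in KO-Bleo lungs and 7.696, 4.57, 7.24 and 8.34 RPKM in WT-Bleo lungs, against 4.08, 4.63, 3.77 and 4.66 RPKM in KO-Sal lungs and 6.45, 5.19, 7.55 and 5.53 RPKM in WT-Sal lungs. It rose in knockout lungs, by 0.93 ± 0.11 (adjusted p = 3.77e-04), and had 0.13 ± 0.17 (adjusted p = 0.591) in wildtype lungs. The wildtype change was 0.32 ± 0.11 (adjusted p = 0.03204) with quality weights, which called it, and 0.30 ± 0.11 (adjusted p = 0.0543) without WT-Bleo replicate 6, which had 5 reads of it. The difference between these changes was 0.79 ± 0.21 (unadjusted p = 0.00182, adjusted p = 0.201), so it was not called, and the KO-Sal libraries all lay below the WT-Sal libraries. Ccl24, or eotaxin-2, lay between 0.0711 and 1.28 RPKM and was not called.

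The ligands of receptors that guide cells to lymphoid tissue and epithelia were low. Ccl19, a ligand of Ccr7 with near-identical gene copies in the mouse genome, lay between 0.562 and 3.49 RPKM. Ccl20, the ligand of Ccr6, lay between 0 and 3.76 RPKM, and Ccl25, the ligand of Ccr9, between 1.11 and 1.91 RPKM, and none of these was called with bleomycin. Ccl27a, a ligand of Ccr10 that overlaps Il11ra1, stood at 0.583, 0.8703, 0 and 0.771 RPKM in KO-Bleo lungs, against 1.18, 1.23, 1.72 and 0.986 RPKM in KO-Sal lungs. It fell, at -0.58 ± 0.19 (adjusted p = 0.04898), a call lost in 8 of 18 alternatives, among them those without any 1 KO-Sal library or without KO-Bleo replicate 13 or 16 (-0.38 ± 0.12 without KO-Bleo replicate 15, where it was called), and had -0.12 ± 0.16 (adjusted p = 0.615) in wildtype lungs. Xcl1, made by NK cells and T cells, lay between 0 and 3.30 RPKM and was not called.

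Among the ligands of Cxcr2, Cxcl1 rose, Ppbp fell, and Cxcl2, Cxcl3 and Cxcl5 were low and were not called. Cxcl1, or KC, stood at 3.898, 3.04, 2.56 and 5.65 RPKM in KO-Bleo lungs and 3.8997, 1.74, 4.72 and 3.29 RPKM in WT-Bleo lungs, against 1.78, 1.298, 2.24 and 1.36 RPKM in KO-Sal lungs and 1.22, 0.733, 0.404 and 0.9797 RPKM in WT-Sal lungs. It rose by 0.82 ± 0.19 (adjusted p = 0.0125) in knockout and 1.24 ± 0.23 (adjusted p = 0.00286) in wildtype lungs. Cxcl2, or MIP-2, lay between 0 and 1.52 RPKM with changes of 0.17 ± 0.20 (adjusted p = 0.567) in knockout and 0.27 ± 0.26 (adjusted p = 0.473) in wildtype lungs. Cxcl3 lay between 0 and 0.991 RPKM with 0.08 ± 0.21 (adjusted p = 0.826) in knockout and 0.32 ± 0.17 (adjusted p = 0.196) in wildtype lungs. Both were at 0 in WT-Bleo replicate 6 and were called higher in wildtype lungs once that library was left out. The NF-kB letters shown above were shared by Cxcl1, Cxcl2 and Cxcl3 and were also found in Ccr3. The part of these letters in the levels of these members was not tested. Cxcl5, or LIX, lay between 0.380 and 2.6 RPKM and was not called. Ppbp, a platelet chemokine, stood at 7.52, 13.3, 18.7 and 9.62 RPKM in KO-Bleo lungs and 5.97, 1.53, 5.98 and 6.297 RPKM in WT-Bleo lungs, against 24.01, 18.5, 31.2 and 17.9 RPKM in KO-Sal lungs and 11.9, 6.3002, 16.8 and 16.3 RPKM in WT-Sal lungs. It fell, at -0.89 ± 0.26 (adjusted p = 0.0339) in knockout and -1.25 ± 0.38 (adjusted p = 0.0326) in wildtype lungs, the knockout call being lost with a shared spread and without KO-Sal replicate 9 or 11 or KO-Bleo replicate 13 or 16 (adjusted p up to 0.0908). The wildtype call of Ppbp was lost without WT-Sal replicate 1, 3 or 4, by limma-voom, with quality weights and with a pseudocount of 0.1 (adjusted p up to 0.0938). The summed level of 7 platelet and megakaryocyte markers was 3.89 to 7.50 RPKM in KO-Bleo, 3.88 to 4.56 in WT-Bleo lungs, 5.69 to 13 in KO-Sal lungs and 3.89 to 8.25 in WT-Sal. Their median log2 fold change with bleomycin was -0.35 in knockout and -0.24 in wildtype lungs, with 0 of the 7 called in either genotype. The part of these cells in the level of Ppbp was not tested.

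Cxcl10 and Cxcl9, ligands of Cxcr3 that interferon induces, rose in both genotypes. Cxcl10, or IP-10, stood at 9.704, 9.76, 13.99 and 14.0003 RPKM in KO-Bleo lungs and 9.52, 12.03, 11.1 and 12.8 RPKM in WT-Bleo lungs, against 2.203, 2.99, 2.22 and 1.17 RPKM in KO-Sal lungs and 2.68, 1.26, 1.94 and 2.07 RPKM in WT-Sal lungs. It rose by 2.04 ± 0.19 (adjusted p = 8.75e-05) in knockout and 2.06 ± 0.15 (adjusted p = 1.17e-05) in wildtype lungs, with no overlap. Cxcl9, or MIG, was lower and stood at 3.07, 2.28, 3.34 and 3.91 RPKM in KO-Bleo lungs and 2.196, 3.42, 2.17 and 1.99 RPKM in WT-Bleo lungs, against 0.485, 0.768, 1.28 and 0.363 RPKM in KO-Sal lungs and 1.77, 0.335, 0.557 and 0.747 RPKM in WT-Sal lungs. It rose by 1.28 ± 0.18 (adjusted p = 7.79e-04) in knockout and 0.93 ± 0.22 (adjusted p = 0.0108) in wildtype lungs. Pf4, made by platelets and macrophages, stood at 15.4, 14.4, 17.9 and 15.6 RPKM in KO-Bleo lungs and 21.02, 25.3, 18.98 and 15.9 RPKM in WT-Bleo lungs, against 13.1, 14.6, 16.3 and 10.4 RPKM in KO-Sal lungs and 6.98, 8.04, 12.8 and 11.8 RPKM in WT-Sal lungs. It rose in wildtype lungs, by 0.99 ± 0.19 (adjusted p = 0.00371), and had 0.22 ± 0.12 (adjusted p = 0.2297) in knockout lungs, where bleomycin and saline libraries overlapped. The difference between these changes was -0.77 ± 0.24 (unadjusted p = 0.00592, adjusted p = 0.276).

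The remaining CXC ligands include the most abundant member. Cxcl15, or lungkine, is made by lung epithelium and stood at 984, 1007, 1026 and 837 RPKM in KO-Bleo lungs and 702, 590.5, 785 and 816 RPKM in WT-Bleo lungs, against 979.6, 1154, 809 and 972 RPKM in KO-Sal lungs and 1031, 1058, 1080 and 1025 RPKM in WT-Sal lungs. It fell in wildtype lungs, at -0.55 ± 0.09 (adjusted p = 0.00198), and had -0.02 ± 0.11 (adjusted p = 0.938) in knockout lungs. The summed level of 5 markers of alveolar type 2 cells was 15804 to 17434 RPKM in KO-Bleo, 11030 to 12337 in WT-Bleo lungs, 17162 to 20622 in KO-Sal lungs and 19200 to 22720 in WT-Sal. Of these markers, 5 were lower with bleomycin in wildtype and 1 in knockout lungs, and 4 were higher in KO-Bleo against WT-Bleo. For 3 club cell markers the sums were 37166 to 47248 RPKM in KO-Bleo, 30298 to 49658 in WT-Bleo lungs, 47374 to 67414 in KO-Sal lungs and 46552 to 49753 in WT-Sal. With bleomycin, 3 of them were lower in knockout and 1 in wildtype lungs, and 0 were called in KO-Bleo against WT-Bleo. The part of either cell type in the level of Cxcl15 was not tested, and in whole lung fewer cells of a type and less RNA per cell cannot be told apart. Cxcl17, a mucosal chemokine, stood at 88.5, 57.2, 58.6 and 76.7 RPKM in KO-Bleo lungs and 88.3, 74.03, 71.2 and 62.2 RPKM in WT-Bleo lungs, against 31.1, 34.98, 32.8 and 25.6 RPKM in KO-Sal lungs and 22.8, 29.5, 29.7 and 31.7 RPKM in WT-Sal lungs. It rose by 1.13 ± 0.14 (adjusted p = 5.03e-04) in knockout and 1.35 ± 0.12 (adjusted p = 4.15e-05) in wildtype lungs, more than doubling in mean level in both.

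Cxcl16, a membrane-bound ligand of Cxcr6, stood at 32.8, 29.2, 30.4 and 32.9 RPKM in KO-Bleo lungs and 35.9, 41.9, 35.2 and 36.3 RPKM in WT-Bleo lungs, against 23.96, 21.9, 25.5 and 21.2 RPKM in KO-Sal lungs and 25.5, 21.99, 21.6 and 20.8 RPKM in WT-Sal lungs. It rose by 0.42 ± 0.07 (adjusted p = 0.00244) in knockout and 0.71 ± 0.08 (adjusted p = 1.66e-04) in wildtype lungs, while its receptor did not rise. Cxcl14, made by epithelium and fibroblasts, stood at 43.01, 57.8, 58.5 and 49.6 RPKM in KO-Bleo lungs and 77.8, 78.8, 67.8 and 80.7 RPKM in WT-Bleo lungs, against 54.1, 38.9, 58.8 and 44.7 RPKM in KO-Sal lungs and 53.3, 62.4, 60.1 and 56.6 RPKM in WT-Sal lungs. It rose in wildtype lungs, by 0.39 ± 0.07 (adjusted p = 0.0030004), and had 0.09 ± 0.14 (adjusted p = 0.657) in knockout lungs. Cxcl13, the B cell attractant, stood at 11.8, 6.76, 3.48 and 29.3 RPKM in KO-Bleo lungs and 14.98, 5.696, 15.9 and 12.5 RPKM in WT-Bleo lungs, against 6.89, 37.1, 11.8 and 3.13 RPKM in KO-Sal lungs and 3.203, 1.62, 7.805 and 3.91 RPKM in WT-Sal lungs. It was called in wildtype lungs, at 1.42 ± 0.38 (adjusted p = 0.0188), and had -0.06 ± 0.76 (adjusted p = 0.966) in knockout lungs, where single libraries ranged from 3.13 to 37.1 RPKM. The highest value was in KO-Sal replicate 10, which also had a sum of 134 RPKM over 4 adipocyte markers, against 17.9 to 22.9 RPKM in the other KO-Sal libraries. Without that library the knockout change of Cxcl13 was 0.53 ± 0.65 (adjusted p = 0.616), and the part of these cells in its level was not tested. The wildtype call was lost with a shared spread and without WT-Sal replicate 1 or WT-Bleo replicate 5 (adjusted p up to 0.108). Cxcl12, which holds cells that carry Cxcr4, lay between 19.3 and 30.8 RPKM and was not called. Cx3cl1, or fractalkine, a membrane-bound ligand of endothelium and epithelium, stood at 9.26, 10.6, 13.4 and 8.71 RPKM in KO-Bleo lungs and 9.12, 4.74, 9.01 and 8.35 RPKM in WT-Bleo lungs, against 13.7, 13.1, 15.4 and 15.5 RPKM in KO-Sal lungs and 11.9, 16.3, 12.2 and 13.7 RPKM in WT-Sal lungs. It fell, at -0.44 ± 0.12 (adjusted p = 0.0234) in knockout and -0.75 ± 0.18 (adjusted p = 0.0115) in wildtype lungs, the knockout call being lost with a shared spread and without KO-Sal replicate 11 or 12 or KO-Bleo replicate 13 or 16 (adjusted p up to 0.0683).

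Ccr1 and Ccr2, which are carried by monocytes and macrophages, rose with bleomycin in both genotypes. Ccr1, the receptor of Ccl6 and Ccl9, stood at 13.2, 10.02, 16.9 and 11.1 RPKM in KO-Bleo lungs and 16.4, 12.3, 16.3 and 15.3 RPKM in WT-Bleo lungs, against 3.86, 4.85, 4.704 and 4.19 RPKM in KO-Sal lungs and 6.57, 5.63, 9.01 and 3.795 RPKM in WT-Sal lungs. It rose by 1.33 ± 0.14 (adjusted p = 1.73e-04) in knockout and 1.19 ± 0.20 (adjusted p = 0.00154) in wildtype lungs. Ccr2, the receptor of Ccl2, stood at 25.8, 23.4, 33.6 and 21.4 RPKM in KO-Bleo lungs and 22.9, 19.8, 37.4 and 27.2 RPKM in WT-Bleo lungs, against 18.9, 11.2, 15.02 and 14.3 RPKM in KO-Sal lungs and 15.98, 13.5, 15.03 and 13.7 RPKM in WT-Sal lungs. It rose by 0.77 ± 0.16 (adjusted p = 0.007105) in knockout and 0.80 ± 0.16 (adjusted p = 0.00477) in wildtype lungs, a smaller change than that of its ligands. Cx3cr1, the fractalkine receptor of patrolling monocytes, lay between 3.99 and 10.8 RPKM, with 0.48 ± 0.17 (adjusted p = 0.0684) in knockout and 0.44 ± 0.17 (adjusted p = 0.0768) in wildtype lungs.

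All 8 markers of monocyte-derived macrophages were called higher with bleomycin in both genotypes, at medians of 2.23 in knockout and 2.77 in wildtype lungs. Their summed level was 772 to 1129 RPKM in KO-Bleo, 1123 to 1381 in WT-Bleo lungs, 275 to 370 in KO-Sal lungs and 263 to 333 in WT-Sal. Of 6 monocyte markers, 3 were higher and 1 lower in each genotype, with sums of 114 to 136 RPKM in KO-Bleo, 108 to 153 in WT-Bleo lungs, 83.2 to 113 in KO-Sal lungs and 82.1 to 129 in WT-Sal. Their part in the levels of Ccr1, Ccr2 and the ligands was not tested.

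Of the receptors of lymphocytes, Cxcr4, Cxcr5, Cxcr6 and Ccr7 were called lower in wildtype lungs, and Cxcr3, Ccr4, Ccr6, Ccr8, Ccr9 and Ccr10 were not called. Cxcr5, the B cell receptor of Cxcl13, overlaps Bcl9l and stood at 2.34, 3.15, 4.03 and 2.94 RPKM in KO-Bleo lungs and 2.02, 1.898, 3.06 and 2.32 RPKM in WT-Bleo lungs, against 3.53, 4.62, 5.46 and 4.73 RPKM in KO-Sal lungs and 2.94, 4.23, 4.74 and 3.67 RPKM in WT-Sal lungs. It fell, at -0.45 ± 0.14 (adjusted p = 0.0478) in knockout and -0.56 ± 0.15 (adjusted p = 0.0179) in wildtype lungs, the wildtype call being lost without WT-Sal replicate 2 or 3 (adjusted p up to 0.0554). The knockout call of Cxcr5 was lost without KO-Sal replicate 10, 11 or 12 or KO-Bleo replicate 13, 14 or 16 (adjusted p up to 0.121). Cxcr6, found on T cells and NK cells, overlaps Fyco1 and stood at 2.48, 3.697, 3.85 and 3.73 RPKM in KO-Bleo lungs and 1.33, 3.497, 2.76 and 3.09 RPKM in WT-Bleo lungs, against 7.501, 4.12, 6.97 and 2.98 RPKM in KO-Sal lungs and 5.02, 5.29, 3.98 and 4.802 RPKM in WT-Sal lungs. It fell in wildtype lungs, at -0.69 ± 0.19 (adjusted p = 0.0219), a call lost without WT-Sal replicate 1, 2 or 4, and had -0.47 ± 0.23 (adjusted p = 0.169) in knockout lungs. Cxcr4, the receptor of Cxcl12 on many leukocytes, stood at 21.8, 25.98, 23.7 and 28.9 RPKM in KO-Bleo lungs and 20.7, 19.2, 24.2 and 27.2 RPKM in WT-Bleo lungs, against 23.3, 21.03, 29.8 and 40.6 RPKM in KO-Sal lungs and 32.6, 33.1, 32.4 and 26.99 RPKM in WT-Sal lungs. It fell in wildtype lungs, at -0.45 ± 0.11 (adjusted p = 0.0129), and had -0.15 ± 0.18 (adjusted p = 0.5801) in knockout lungs. Ccr7, which guides T cells and dendritic cells to lymph nodes, stood at 5.08, 7.601, 11.1 and 7.03 RPKM in KO-Bleo lungs and 5.98, 5.86, 5.95 and 5.43 RPKM in WT-Bleo lungs, against 5.14, 3.24, 9.02 and 9.59 RPKM in KO-Sal lungs and 6.76, 6.797, 8.02 and 8.997 RPKM in WT-Sal lungs. It fell in wildtype lungs, at -0.34 ± 0.10 (adjusted p = 0.0254), a call lost with a spread shared by all groups and without WT-Sal replicate 3 or 4 or WT-Bleo replicate 8 (adjusted p up to 0.306). In knockout lungs it had 0.22 ± 0.30 (adjusted p = 0.635).

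The summed level of 9 T cell markers was 38.3 to 51.5 RPKM in KO-Bleo, 32.1 to 37.0 in WT-Bleo lungs, 42.8 to 85.2 in KO-Sal lungs and 52.1 to 56.8 in WT-Sal, with 1 lower in knockout and 7 lower in wildtype lungs. For 6 B cell markers the sums were 50.9 to 77.3 RPKM in KO-Bleo, 23.0 to 69.1 in WT-Bleo lungs, 57.2 to 89.4 in KO-Sal lungs and 59.7 to 85.9 in WT-Sal, with 1 lower in knockout and 4 lower in wildtype lungs. For 6 NK cell markers they were 23.3 to 40.1 RPKM in KO-Bleo, 13.2 to 27.0 in WT-Bleo lungs, 28.3 to 49.0 in KO-Sal lungs and 46.4 to 59.9 in WT-Sal, with 1 lower in knockout and 5 lower in wildtype lungs. The part of these cells in the levels of Ccl5, Cxcr4, Cxcr5, Cxcr6 and Ccr7 was not tested.

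Cxcr3, the receptor of Cxcl9 and Cxcl10, stood at 1.77, 1.26, 2.01 and 2.28 RPKM in KO-Bleo lungs and 1.08, 2.06, 1.55 and 1.76 RPKM in WT-Bleo lungs, against 3.33, 2.04, 6.04 and 2.15 RPKM in KO-Sal lungs and 2.15, 1.73, 1.77 and 1.67 RPKM in WT-Sal lungs. It was not called, with -0.56 ± 0.25 (adjusted p = 0.129) in knockout and -0.13 ± 0.13 (adjusted p = 0.513) in wildtype lungs, and the highest values were in KO-Sal replicates 9 and 11. Cxcr2, the neutrophil receptor of Cxcl1, stood at 5.18, 5.93, 6.39 and 5.41 RPKM in KO-Bleo lungs and 6.34, 2.72, 6.12 and 5.22 RPKM in WT-Bleo lungs, against 5.56, 3.84, 6.26 and 5.98 RPKM in KO-Sal lungs and 4.64, 6.903, 16.5 and 5.77 RPKM in WT-Sal lungs. It was not called, with 0.08 ± 0.13 (adjusted p = 0.678) in knockout and -0.53 ± 0.34 (adjusted p = 0.279) in wildtype lungs, and its highest value was in WT-Sal replicate 3. That library also had the highest sum of 7 neutrophil markers, 700.0 RPKM, against 81.8 to 255 RPKM in the other libraries, and their part in the level of Cxcr2 was not tested. Cxcr1, the other neutrophil receptor of this class, stood at 1.65, 1.996, 0.7204 and 1.71 RPKM in KO-Bleo lungs, against 0.852, 0.574, 0.572 and 0.626 RPKM in KO-Sal lungs. It rose by 0.58 ± 0.16 (adjusted p = 0.0275) in knockout lungs, a call lost without KO-Bleo replicate 13, 14 or 16 or KO-Sal replicate 10, 11 or 12, and it had 0.28 ± 0.22 (adjusted p = 0.375) in wildtype lungs, where it was called higher without WT-Bleo replicate 6, at 0.50 ± 0.12 (adjusted p = 0.00856). Ccr3, the eosinophil receptor of Ccl11, lay between 0 and 1.73 RPKM and fell in wildtype lungs, at -0.50 ± 0.16 (adjusted p = 0.0419), a call lost in 7 of 17 alternatives, among them those without WT-Sal replicate 2, 3 or 4 or WT-Bleo replicate 5 or 8. Ccr4, Ccr6, Ccr8, Ccr9, Ccr10 and Xcr1 all lay below 1.5 RPKM in every library and were not called.

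**Figure D3:**
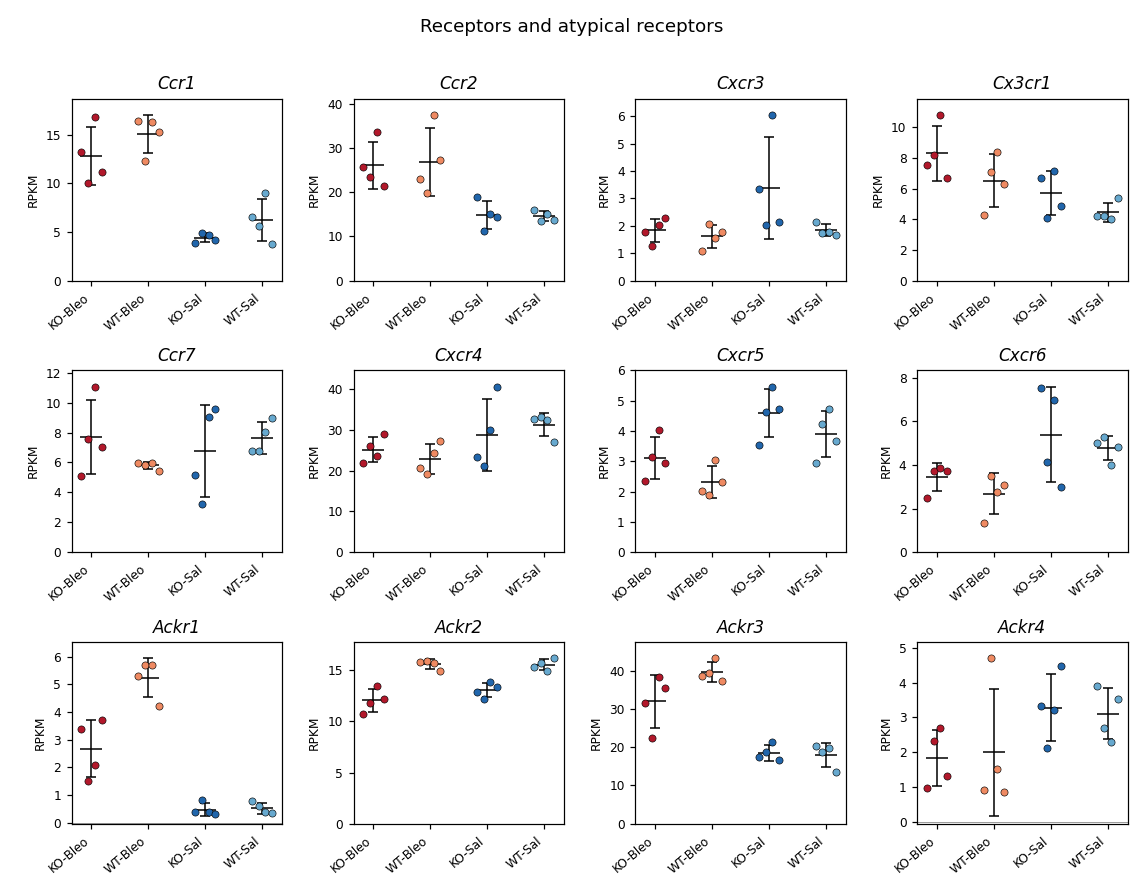
RPKM (y axis) of 8 receptors and the 4 atypical receptors in KO-Bleo, WT-Bleo, KO-Sal and WT-Sal lungs (x axis), with a point per library and the mean ± SD (n = 4). Ccr1 and Ccr2 are higher in all bleomycin libraries than in the saline libraries of the same genotype, and Ackr1 lies between 1.52 and 5.72 RPKM with bleomycin and below 0.9 RPKM with saline.

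Of the atypical receptors, Ackr1 and Ackr3 rose with bleomycin. Ackr1, also called DARC, is carried by venular endothelium and red cells, overlaps Cadm3, and stood at 3.38, 1.52, 2.098 and 3.72 RPKM in KO-Bleo lungs and 5.304, 5.72, 5.72 and 4.22 RPKM in WT-Bleo lungs, against 0.389, 0.811, 0.389 and 0.304 RPKM in KO-Sal lungs and 0.776, 0.601, 0.368 and 0.357 RPKM in WT-Sal lungs. It rose by 1.29 ± 0.20 (adjusted p = 0.00147) in knockout and 2.03 ± 0.13 (adjusted p = 5.97e-06) in wildtype lungs. Ackr3, or CXCR7, which clears Cxcl12, stood at 31.5, 22.4, 38.4 and 35.4 RPKM in KO-Bleo lungs and 38.6, 39.2, 43.2 and 37.4 RPKM in WT-Bleo lungs, against 17.5, 18.7, 21.3 and 16.6 RPKM in KO-Sal lungs and 20.3, 18.7, 19.7 and 13.4 RPKM in WT-Sal lungs. It rose by 0.73 ± 0.15 (adjusted p = 0.00604) in knockout and 1.11 ± 0.12 (adjusted p = 1.04e-04) in wildtype lungs. Ackr2, or D6, a scavenger of CC ligands carried by lymphatic endothelium, stood at 10.7, 11.8, 13.4 and 12.2 RPKM in KO-Bleo lungs and 15.8, 15.9, 15.7 and 14.9 RPKM in WT-Bleo lungs, against 12.9, 12.2, 13.8 and 13.4 RPKM in KO-Sal lungs and 15.3, 15.7, 14.9 and 16.2 RPKM in WT-Sal lungs. It was not called with bleomycin, and every knockout library lay below the wildtype libraries of the same treatment. The summed level of 5 markers of lymphatic endothelium was divided in the same way, at 121 to 144 RPKM in KO-Bleo, 151 to 207 in WT-Bleo lungs, 104 to 155 in KO-Sal lungs and 161 to 243 in WT-Sal. Most of that sum was Lyve1, at 103 to 121 RPKM in KO-Bleo, 124 to 181 in WT-Bleo lungs, 81.8 to 137 in KO-Sal lungs and 139 to 222 in WT-Sal. Each of the other 4 markers overlapped between KO-Sal and WT-Sal, and the part of these cells in the level of Ackr2 was not tested. Ackr4, which clears Ccl19 and Ccl25, overlaps Acad11 and lay between 0.862 and 4.71 RPKM, with -0.62 ± 0.22 (adjusted p = 0.0716) in knockout and -0.60 ± 0.33 (adjusted p = 0.198) in wildtype lungs. Without WT-Bleo replicate 6, where it was highest, limma called Ackr4 lower in wildtype lungs.

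Other members that were not called passed the threshold once 1 library was left out. Without WT-Bleo replicate 6, Ccl20 (0.41 ± 0.12, adjusted p = 0.0232) and Ccr8 (0.55 ± 0.08, adjusted p = 2.85e-04) were called higher and Ccl27a (-0.27 ± 0.09, adjusted p = 0.0417) lower in wildtype lungs. In wildtype lungs Cx3cr1 was called higher without WT-Bleo replicate 5, Cxcl12 higher without WT-Sal replicate 4 and Ccr10 lower without WT-Sal replicate 3. In knockout lungs Cx3cr1 was called higher without KO-Sal replicate 11 and Ccr4 higher without KO-Bleo replicate 15. Lower calls in knockout lungs were those of Ackr4 without KO-Sal replicate 10 or KO-Bleo replicate 15, Cxcl12 without KO-Sal replicate 10 and Cxcr6 without KO-Sal replicate 12. With every library kept, limma-voom called Ccl20, Ccr8, Cx3cr1, Cxcl2, Cxcl3 and Cxcr1 higher in wildtype lungs. It called Ccr4 higher in knockout lungs and Ackr4 lower in both genotypes, and quality weights gave these calls too. Quality weights also called Cxcl12 higher and Ccr10 lower in wildtype and Cxcl12 lower in knockout lungs. Of all genes, limma-voom called 43.3% in wildtype and 29.5% in knockout lungs, and quality weights 43.3% and 32.5%.

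The comparison of KO-Bleo with WT-Bleo asks whether the family depends on IL-31RA in bleomycin-treated lungs. At an adjusted p under 0.05 limma called 0 of 54 members, where 0.214% of all genes were called, and limma-voom on the recovered reads called 9, where 3.55% of all genes were called. An unadjusted p under 0.05 was reached by 15 members (27.8%), where 11.1% of all genes reached it, with 5 higher and 10 lower values in KO-Bleo. The thresholds of the study were an unadjusted p under 0.05 and 1.5-fold or more. Put on the limma changes of RPKM + 1, they were met by 7 members, where 1.26% of all genes met them. Of these members, Ccl20, Ccl5, Cxcr1 and Ppbp were higher and Ackr1, Ccl12 and Xcl1 lower in KO-Bleo. Over all genes, 97 were higher and 110 lower at these thresholds. The study's own list, from its own fit, differs from this. It also holds Ccl2 as lower and Ccr3 as higher in knockout lungs, and does not hold Ccl5. Xcl1 had -0.82 ± 0.31 (unadjusted p = 0.0255, adjusted p = 0.366). Ccl20 had 0.73 ± 0.32 (unadjusted p = 0.0443, adjusted p = 0.438), and 0.44 ± 0.24 without KO-Bleo replicate 16. Cxcr1 had 0.62 ± 0.25 (unadjusted p = 0.0331, adjusted p = 0.399), and 0.40 ± 0.19 without WT-Bleo replicate 6. The median log2 fold change of the members was 0.06, against 0.01 over all genes.

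The lowest p-values were those of Ccl12, Cxcl14 and Ackr2. Ccl12 averaged 5.27 ± 1.07 RPKM in KO-Bleo and 10.01 ± 1.55 RPKM in WT-Bleo lungs (SD, n = 4 each), with no overlap. Its log2 fold change was -0.82 ± 0.14 (unadjusted p = 2.36e-04, adjusted p = 0.0623) by limma, and it was called with a filter of 1 RPKM in a group, by limma-voom and with library quality weights (adjusted p between 0.0112 and 0.203 over the alternatives). Cxcl14 averaged 52.2 ± 7.35 RPKM in KO-Bleo and 76.3 ± 5.76 RPKM in WT-Bleo lungs (SD, n = 4 each), with -0.55 ± 0.10 (unadjusted p = 4.06e-04, adjusted p = 0.0801). It was called by limma-voom, with a shared spread and with quality weights (adjusted p between 0.00372 and 0.224). Ackr2 averaged 12.05 ± 1.12 RPKM in KO-Bleo and 15.6 ± 0.461 RPKM in WT-Bleo lungs (SD, n = 4 each), with -0.35 ± 0.08 (unadjusted p = 0.001104, adjusted p = 0.114). It was called in 4 of 18 alternatives, among them the fit without both shallow libraries (adjusted p between 0.00415 and 0.326).

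Ackr1 averaged 2.68 ± 1.04 RPKM in KO-Bleo and 5.24 ± 0.709 RPKM in WT-Bleo lungs (SD, n = 4 each), with -0.80 ± 0.20 (unadjusted p = 0.00278, adjusted p = 0.163) and no overlap. It was called by limma-voom and with a shared spread (adjusted p = 0.0489 and 0.0322). For 8 of 54 members all KO-Bleo libraries lay on one side of all WT-Bleo libraries, as they did for 8.48% of all genes. Beside Ccl12, Cxcl14, Ackr2 and Ackr1, Cxcl16 was lower and Cxcl15, Ppbp and Ccl5 were higher in every KO-Bleo library than in any WT-Bleo library. Their log2 fold changes were -0.24 for Cxcl16, 0.42 for Cxcl15, 1.21 for Ppbp and 1.03 for Ccl5, none called by limma (adjusted p from 0.1701 to 0.414). Without WT-Bleo replicate 6, which had 1 read of Ccl5, the value of Ccl5 was 0.51 ± 0.11 (adjusted p = 0.0982). Cxcl15 was called by limma-voom (adjusted p = 0.0489). Ccl2, the monocyte attractant, averaged 10.98 ± 3.01 RPKM in KO-Bleo and 14.8 ± 1.34 RPKM in WT-Bleo lungs (SD, n = 4 each), and the groups overlapped through KO-Bleo replicate 15. Its log2 fold change was -0.43 ± 0.16 (unadjusted p = 0.0227, adjusted p = 0.354), and it was called by limma-voom and with quality weights (adjusted p between 0.0119 and 0.629 over the alternatives). Limma-voom also called Ccl9, Ccr1 and Cxcl12 lower in KO-Bleo (adjusted p = 0.0358, 0.0124 and 0.0316), where limma had -0.27 ± 0.12 (adjusted p = 0.462) for Ccl9, -0.24 ± 0.15 (adjusted p = 0.578) for Ccr1 and -0.25 ± 0.08 (adjusted p = 0.305) for Cxcl12, and Cxcl12 was called with quality weights too. Of the members given in this comparison whatever their call, Ccl7 had -0.20 ± 0.21 (adjusted p = 0.717), Cxcl9 0.27 ± 0.17 (adjusted p = 0.562) and Cxcr3 0.12 ± 0.16 (adjusted p = 0.7896). Cxcl1 had 0.13 ± 0.25 (adjusted p = 0.863), Cxcl10 0.04 ± 0.14 (adjusted p = 0.922), Ccr2 -0.02 ± 0.19 (adjusted p = 0.975) and Cxcr2 0.19 ± 0.20 (adjusted p = 0.725), and the sign of these last 4 turned in some alternatives. The median log2 fold change between KO-Bleo and WT-Bleo was 0.03 over the 6 monocyte markers and -0.38 over the 8 markers of monocyte-derived macrophages. In this comparison 0 markers of either list were called, and the part of these cells in the values of these members was not tested.

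**Figure D4:**
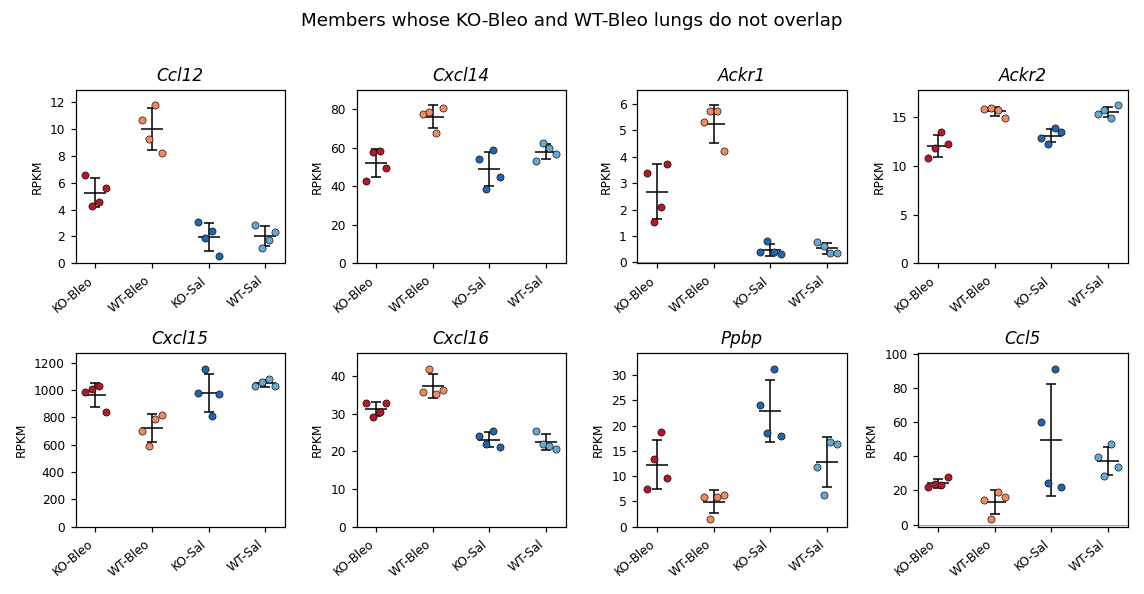
RPKM (y axis) of the 8 members whose KO-Bleo and WT-Bleo libraries do not overlap (8.48% of all genes do not), in KO-Bleo, WT-Bleo, KO-Sal and WT-Sal lungs (x axis), with a point per library and the mean ± SD (n = 4). Ccl12, Cxcl14, Ackr1, Ackr2 and Cxcl16 are lower and Cxcl15, Ppbp and Ccl5 higher in KO-Bleo, and none was called by limma at an adjusted p under 0.05.

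Without bleomycin, KO-Sal against WT-Sal gave 0 of 54 members called by limma, where 0.0488% of all genes were called, and 0 by limma-voom, where 0.714% were called. An unadjusted p under 0.05 was reached by 10 members (18.5%), where 16.2% of all genes reached it, and 1 member met the thresholds of the study, where 0.861% of all genes did. Ackr2 averaged 13.1 ± 0.703 RPKM in KO-Sal and 15.5 ± 0.536 RPKM in WT-Sal lungs (SD, n = 4 each), with -0.23 ± 0.06 (unadjusted p = 0.00231, adjusted p = 0.0945) and no overlap, so its value was lower in knockout lungs under both treatments. The summed level of the lymphatic endothelium markers, most of it Lyve1, was lower there too. Of these 5 markers 0 were called between genotypes under either treatment. Their median log2 fold change was -0.01 in KO-Sal against WT-Sal and -0.30 in KO-Bleo against WT-Bleo. Ccl22 averaged 4.28 ± 0.439 RPKM in KO-Sal and 6.18 ± 1.06 RPKM in WT-Sal lungs (SD, n = 4 each), with -0.43 ± 0.11 (unadjusted p = 0.00231, adjusted p = 0.0945). Ccl17, the other ligand of Ccr4, had -0.40 ± 0.11 (unadjusted p = 0.00494, adjusted p = 0.123), and these groups did not overlap. Cxcl1 averaged 1.67 ± 0.435 RPKM in KO-Sal and 0.833 ± 0.348 RPKM in WT-Sal lungs (SD, n = 4 each), with 0.55 ± 0.15 (unadjusted p = 0.00455, adjusted p = 0.118). Ppbp was higher in every KO-Sal library than in any WT-Sal library, as it was in KO-Bleo against WT-Bleo, with 0.84 ± 0.30 (unadjusted p = 0.0214, adjusted p = 0.212).

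The interaction asks whether the genotypes differed in their change with bleomycin, a positive value meaning that the log2 fold change was higher in knockout lungs. Limma called 0 of 54 members, where 0.220% of all genes were called, and limma-voom called 0, where 0.495% were called. An unadjusted p under 0.05 was reached by 10 members (18.5%), where 11% of all genes reached it, 3 with a positive and 7 with a negative value, and 6 met the thresholds of the study, where 2.06% of all genes did. The positive ones were Ccl22, Cxcl15 with 0.53 ± 0.15 (unadjusted p = 0.00294, adjusted p = 0.2304) and Ccr3 with 0.77 ± 0.34 (unadjusted p = 0.0377, adjusted p = 0.434). Among the negative ones, Pf4 had the lowest p, with -0.77 ± 0.24 (unadjusted p = 0.00592, adjusted p = 0.276). Ccl2 had -0.62 ± 0.23 (unadjusted p = 0.0173, adjusted p = 0.362), Ccl12 -0.74 ± 0.34 (unadjusted p = 0.0479, adjusted p = 0.452), Ackr1 -0.75 ± 0.25 (unadjusted p = 0.00912, adjusted p = 0.314) and Cxcl12 -0.49 ± 0.16 (unadjusted p = 0.00732, adjusted p = 0.2903). The others were Cxcl16 with -0.28 ± 0.11 (unadjusted p = 0.0192, adjusted p = 0.370) and Ccl9 with -0.45 ± 0.21 (unadjusted p = 0.0440, adjusted p = 0.442). The difference in the change of any member between the genotypes was therefore not shown at the adjusted threshold, including members called in 1 genotype alone.

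Genes that act with the family were read from lists written with earlier results of these data known, and their counts stand beside the 23.6% of all genes called in knockout and 30.9% in wildtype lungs. Of 33 genes of signal transduction below the receptors, 6 rose and 1 fell in knockout and 7 rose and 4 fell in wildtype lungs with bleomycin. Rgs1, which shortens chemokine receptor signals, rose by 1.05 ± 0.21 (adjusted p = 0.00604) in knockout and 1.40 ± 0.17 (adjusted p = 2.95e-04) in wildtype lungs. Of 9 genes that cut or present chemokines, 4 rose and 1 fell in knockout and 5 rose and 3 fell in wildtype lungs. Dpp4, a protease that trims chemokines, fell, at -0.49 ± 0.08 (adjusted p = 0.00250) in knockout and -0.84 ± 0.07 (adjusted p = 2.34e-05) in wildtype lungs. Adam10, which sheds Cx3cl1 and Cxcl16 from the membrane, rose by 0.40 ± 0.06 (adjusted p = 8.91e-04) in knockout and 0.43 ± 0.06 (adjusted p = 8.74e-04) in wildtype lungs. Of 14 other chemoattractant genes, 3 rose and 6 fell in knockout and 4 rose and 6 fell in wildtype lungs. C3ar1, the receptor of complement C3a, rose by 2.24 ± 0.12 (adjusted p = 4.01e-06) in knockout and 2.57 ± 0.12 (adjusted p = 9.38e-07) in wildtype lungs, while the formyl peptide receptor Fpr1 fell, at -0.97 ± 0.10 (adjusted p = 1.21e-04) in knockout and -0.85 ± 0.11 (adjusted p = 4.25e-04) in wildtype lungs. In KO-Bleo against WT-Bleo the smallest p of these lists was that of the inhibitory G protein subunit Gnai2, with -0.29 ± 0.06 (adjusted p = 0.108).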

How the data were processed

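Total lung RNA of 16 libraries was sequenced, 4 per group, and groups were taken from the labels. Tools listed in the submitters' processing notes are bcl2fastq, CASAVA 1.8, TopHat and DESeq, and the build is mm10. The deposited values were taken as RPKM made by the authors, although no source names the unit, since the values of 16377 of 16380 genes (99.98%) were whole reads times a gene and a library factor (relative tolerance 6e-08). The sources used here do not say whether counting used strand, so reads of overlapping genes cannot be told apart. In total, 0 columns of values were left out.

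Groups were compared two-sided by limma 3.58.1 in R 4.3.3 (trend and robust options) on log2(RPKM + 1), each comparison on its own 2 groups and the interaction on all 4, and p-values were adjusted over all listed genes by the Benjamini-Hochberg method. The fit was also run on simulated reads with the same spread setting for every gene, and no result here rests on that run. Alternatives were pseudocounts of 0.1 and 5, filters of 1 RPKM in a group and 0.1 RPKM over all libraries, median-of-ratios and upper-quartile scaling, limma-voom on the recovered reads, a shared spread, quality weights, the study's thresholds (p under 0.05 and 1.5-fold), both shallow libraries left out and each library left out. The study's thresholds were put on limma changes of RPKM + 1 and not on the study's own fit. Members and lists were chosen with earlier results of these data known. Values by library are given for members called in a comparison with a mean of at least 1 RPKM in a group, and for Ccl2, Ccl7, Ccl12, Cxcl1, Cxcl9, Cxcl10, Ccr2, Cxcr2 and Cxcr3. Promoter letters are from RefSeq (GRCm38.p6). The motifs 1 base shorter were chosen after the matches were seen. Ligands such as Ccl21a and Cxcl11 were not analysed here, and 2 items that the symbol rule matches are not reported here.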

Additional observations from a re-analysis of the deposited data

Results flagged for a closer look

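In 13 of 184 groups of 4 libraries, 1 library stood apart from the others of its group by Dixon's criterion, where chance gives about 1 in 20 groups. In the shallow WT-Bleo replicate 6, Ackr4 was at 4.71 RPKM (0.862 to 1.52 in the other WT-Bleo libraries), Ccl27a at 1.74 (0.716 to 0.866), Cxcl16 at 41.9 (35.2 to 36.3) and Cxcl9 at 3.42 (1.99 to 2.20). Ccl9 was at 41.8 RPKM there (48.2 to 49.2) and Ppbp at 1.53 (5.97 to 6.30). In KO-Bleo replicate 16, Ccl20 was at 3.76 RPKM (0.886 to 1.23) and Cxcl5 at 2.6 (0.484 to 0.638), and in KO-Bleo replicate 13 Cxcr6 was at 2.48 (3.70 to 3.85). In KO-Sal, Ackr1 was at 0.811 RPKM in replicate 10 (0.304 to 0.389), Ccl17 at 8.11 in replicate 9 (9.36 to 9.51) and Ccl3 at 2.08 in replicate 12 (0.999 to 1.11). Cxcr4 was at 27.0 RPKM in WT-Sal replicate 4 (32.4 to 33.1).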

How the results depend on the processing

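The count of members called with bleomycin lay between 19 and 27 in knockout and 24 and 39 in wildtype lungs over the alternatives, and the sign of every called member was kept, 19 of 24 and 22 of 30 being called in every refit, of which 18 and 19 also met the study's thresholds. In KO-Bleo against WT-Bleo, where limma called 0, the count was 9 by limma-voom (3.55% of all genes called), 5 with quality weights (2.48%), 3 with a shared spread (1.64%), 1 with a filter of 1 RPKM in a group (0.478%), 1 without both shallow libraries (0.580%) and 7 at the study's thresholds (1.26%). In KO-Sal against WT-Sal it was 0 to 1 without single libraries (Ccr3 without KO-Sal replicate 12, where 4.41% of all genes were called) and 1 at the study's thresholds, and in the interaction it was 1 with quality weights (Ccl2, where 0.830% of all genes were called) and 6 at the study's thresholds.

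The sign of the log2 fold change turned in at least 1 alternative for 18 of 54 members in KO-Bleo against WT-Bleo, 6 in WT-Bleo against WT-Sal, 10 in KO-Bleo against KO-Sal, 21 in KO-Sal against WT-Sal and 19 in the interaction, and limma had called none of these. In KO-Bleo against WT-Bleo, Ccr2 had 0.0159 with upper-quartile scaling and -0.149 to 0.145 without single libraries. Cxcl10 had -0.00363 by limma-voom, -0.0283 with quality weights, -0.00822 without both shallow libraries and -0.0364 to 0.126 without single libraries. Cxcr2 had -0.0698 by limma-voom, -0.0465 with quality weights, -0.0818 without both shallow libraries and -0.0356 to 0.291 without single libraries, and Cxcl1 had -0.0851 to 0.268 without single libraries. The cause was not tested. Over all genes, 3045 were higher and 2021 lower with bleomycin in wildtype lungs, against 2482 and 2503 with median-of-ratios scaling and 2167 and 2296 with upper-quartile scaling, while the members stayed at 21 and 9. The replicate numbers run from 1 to 16 without repeats. No paired analysis was possible because the groups share no replicate number.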
